A study of Homo sapiens with 7 samples.

Results

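The microRNA processing and Argonaute machinery was taken here as 10 genes chosen by symbol: DROSHA, DGCR8, XPO5, DICER1, AGO1, AGO2, AGO3, TNRC6A, TNRC6B and TNRC6C. All 10 were listed in each of the 6 mRNA libraries, among 15659 gene symbols, and all 10 passed the filter on low counts. The libraries came from HCT116 DROSHA-KO cells, a knockout derivative of the human colorectal carcinoma line HCT116, transfected with miR-148a-3p (3 libraries) or with a control miRNA (3 libraries) and harvested 48 h later. Both groups carry the DROSHA knockout, and no mRNA library of parental HCT116 cells was analysed here. The labels do not say whether the knockout line is 1 clone or which part of DROSHA was deleted. A small RNA library of wild-type HCT116 cells (1 library, with no transfection given in the labels) was also used.

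In the canonical pathway, the Microprocessor, built from the nuclease DROSHA and the RNA-binding protein DGCR8, cuts a hairpin precursor out of a primary transcript in the nucleus. XPO5 (exportin 5) carries the precursor to the cytoplasm, DICER1 trims it to a short duplex, and an Argonaute protein keeps 1 strand as its guide. TNRC6 (GW182) proteins bind Argonaute and recruit the deadenylases and decapping factors that repress the target mRNA. A transfected microRNA mimic enters this pathway at Argonaute loading and needs neither DROSHA nor DICER1.

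The microRNA that was transfected is shown first, with the microRNAs that share its seed, because the seed (bases 2 to 8, in capitals) sets target recognition. The sequences are RefSeq entries of GRCh38.p14, 5′ to 3′:
miR-148a-3p: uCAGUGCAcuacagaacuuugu
miR-148b-3p: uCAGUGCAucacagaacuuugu
miR-152-3p: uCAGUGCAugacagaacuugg
These were the 3 names with this seed among 2370 mature names in the table. In wild-type cells miR-148a-3p is cut from the MIR148A hairpin (GRCh38.p14, minus strand, chr7:25949919-25949986), where the capitals mark the 3p arm:
MIR148A: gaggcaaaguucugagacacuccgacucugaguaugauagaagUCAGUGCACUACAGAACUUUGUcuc

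The mRNA libraries were primed with oligo-dT from 500 ng of total RNA. If reads then fall near the 3′ end of each transcript, CPM (read counts scaled to a common library size) can be set side by side between genes. Read positions were not checked, so levels of different genes may also reflect transcript length. The libraries held 630142 to 1564125 counts with miR-148a-3p and 876131 to 1069154 counts with the control miRNA. On the first principal component (29.8% of the variance) miR-148a-3p replicate 3 lay at 34.2 and control replicate 1 at −31.4, with the other 4 libraries between −8.29 and 13.1. Colon epithelium markers summed to 1022 to 2740 counts with miR-148a-3p and 1473 to 2069 with the control, with KRT20, CDX1, CDH17 and CEACAM5 at 0 in all 6 libraries. Blood cell markers summed to 1 to 11 and to 3 to 8 counts, with 7 of 10 at 0 in every library, and fibroblast and endothelial markers to 28 to 83 and to 34 to 85, with 4 of 9 at 0. In bulk RNA, fewer cells of a type and less RNA per cell cannot be told apart.

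None of the 10 genes passed the threshold (edgeR quasi-likelihood test, Benjamini-Hochberg adjusted p below 0.05 over 8921 genes), and MORF4L1 was the 1 gene of all those tested that did, which is 0.0112% of them. DESeq2 and limma-voom also called 0 of the 10. The fitted log2 fold change, miR-148a-3p over control, was below 0 for 8 of the 10 and above 0 for 2, against 50.5% of all tested genes below 0. The median of the 10 was −0.16, beside −0.0039 over all tested genes. At an unadjusted p below 0.05, 1 of the 10 was lower, where 3.4% of all genes were, and 0 were higher, where 3.4% were. The 2 groups of libraries did not overlap for 1 of the 10, which was lower (6.59% of all genes), and for 0 that were higher (6.22%). In each of these counts the 1 gene was XPO5. The 95% interval of the log2 fold change, which is per gene and not adjusted, lay wholly within 1 of 0 for 8 of the 10, all but DROSHA and XPO5, against 60.7% of all genes.

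**Figure D1:**
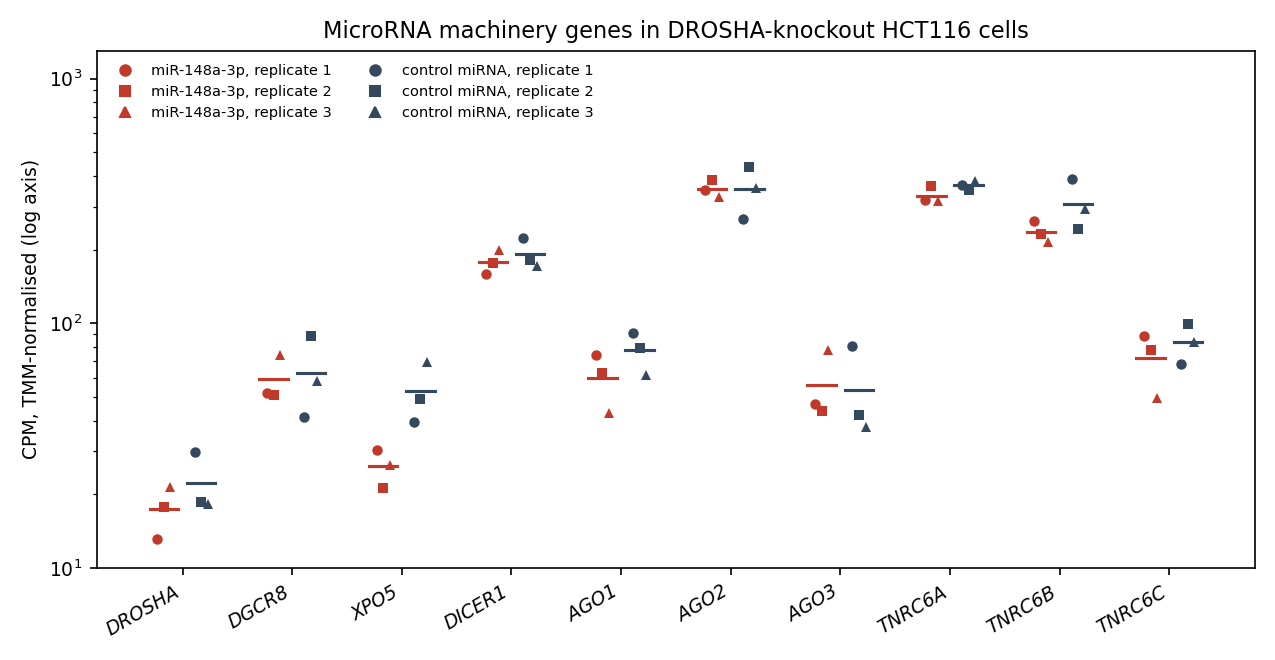
Level of each gene in each library, as TMM-normalised CPM on a log axis, with miR-148a-3p libraries in red left of control miRNA libraries in blue; marker shapes are replicate numbers and bars are group means. XPO5 is the 1 gene whose groups do not overlap, at 21.3 to 30.3 CPM with miR-148a-3p and 39.5 to 69.4 CPM with the control.

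DROSHA, the nuclease of the Microprocessor (chromosome 5, 31400494 to 31532093; this and the spans below are RefSeq gene spans of GRCh38.p14, with no exon or UTR given), was the least abundant of the 10 genes. It had 20, 15 and 13 reads in the miR-148a-3p libraries and 31, 16 and 16 in the control libraries, and 19.0% of tested genes had a lower mean level. This was 13.2, 17.7 and 21.4 CPM with miR-148a-3p, against 29.9, 18.7 and 18.2 CPM with the control. The groups overlapped, and control replicate 1 was the highest library. Its fitted log2 fold change was −0.40 (SE 0.43, 95% interval −1.28 to 0.47, edgeR adjusted p = 0.893). It was −0.13 (SE 0.52) without control replicate 1. Read counts of the gene do not check a knockout whose position in the gene is not given.

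DGCR8, the partner that holds the hairpin for DROSHA (chromosome 22, 20080241 to 20111872), had 52.1, 50.9 and 74.1 CPM with miR-148a-3p, against 41.4, 88.7 and 58.0 CPM with the control. The control libraries held both the lowest and the highest value. Between groups the log2 fold change was −0.10 (SE 0.29, 95% interval −0.69 to 0.49, edgeR adjusted p = 0.957), and 0.23 (SE 0.32) without control replicate 2. Of the reads of DROSHA and DGCR8 together, DGCR8 held 79.8%, 74.1% and 77.6% with miR-148a-3p and 58.1%, 82.6% and 76.1% with the control. The means were 77.2% ± 2.85 and 72.3% ± 12.7 (SD, n = 3 each; exact two-sided permutation p = 0.8, where 0.1 is the smallest that 3 libraries against 3 can give). DGCR8 reads thus outnumbered DROSHA reads in all 6 libraries, including control replicate 1, where the share was lowest.

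XPO5, the export receptor of microRNA precursors (chromosome 6, 43522334 to 43576038), had the largest difference of the 10. It had 46, 18 and 16 reads with miR-148a-3p and 41, 42 and 61 with the control. On the CPM scale it was at 30.3, 21.3 and 26.3 with miR-148a-3p, against 39.5, 49.0 and 69.4 with the control. Each of the 3 miR-148a-3p libraries lay below each of the 3 control libraries. The means were 26.0 ± 4.52 and 52.6 ± 15.3 CPM (SD, n = 3 each). The log2 fold change was −0.99 (SE 0.32, 95% interval −1.65 to −0.33), a fold of 0.503, and it did not pass over all genes tested (edgeR adjusted p = 0.455). It was below 0 under all 15 alternatives run. Since the groups did not overlap, leaving out 1 library could hardly turn this sign. The adjusted p ranged from 0.120 without control replicate 1 to 0.998 without miR-148a-3p replicate 3. The log2 fold change ranged from −1.17 without control replicate 1 to −0.72 with the reads of an overlapping gene added (adjusted p = 0.626).

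That overlapping gene is POLR1C, a subunit of RNA polymerases I and III, which lies on the opposite strand and shares 40074 bases with the XPO5 span in RefSeq. POLR1C had 25, 11 and 6 reads with miR-148a-3p and 14, 13 and 10 with the control. The sources used here do not say whether the counting used strand.

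DICER1, the cytoplasmic nuclease that cuts precursors to duplexes (chromosome 14, 95086228 to 95158010), had 159, 176 and 199 CPM with miR-148a-3p, against 222, 181 and 172 CPM with the control. The groups overlapped, with control replicate 1 highest. Its fitted log2 fold change was −0.12 (SE 0.20, 95% interval −0.52 to 0.28, edgeR adjusted p = 0.937), and 9.12e-04 (SE 0.20) without control replicate 1. As a fold, the fitted value was 0.922, with an unadjusted 95% interval of 0.699 to 1.22.

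Argonaute proteins hold the guide strand, and AGO2 is the member of the family known for efficient slicing of fully matched targets. AGO2 (chromosome 8, 140520156 to 140642313) was at 349, 387 and 328 CPM with miR-148a-3p, against 268, 434 and 356 CPM with the control, and 95.0% of tested genes had a lower mean level. The miR-148a-3p libraries lay inside the range of the control libraries. The log2 fold change was 0.01 (SE 0.19, 95% interval −0.37 to 0.40, edgeR adjusted p = 0.995). Leaving out control replicate 1 gave −0.16 (SE 0.17), and leaving out miR-148a-3p replicate 2 gave −0.05 (SE 0.22), so its sign rests on single libraries.

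AGO1 (chromosome 1, 35869761 to 35930532) was at 74.5, 62.7 and 42.8 CPM with miR-148a-3p, against 91.5, 79.3 and 61.4 CPM with the control. The groups overlapped, since control replicate 3 lay below 2 of the miR-148a-3p libraries. Between groups the log2 fold change was −0.34 (SE 0.26, 95% interval −0.87 to 0.20, edgeR adjusted p = 0.846), and leaving out 1 library gave −0.54 to −0.17.

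AGO3 (chromosome 1, 35930718 to 36072500) was at 46.8, 43.8 and 77.4 CPM with miR-148a-3p, against 80.9, 42.0 and 37.5 CPM with the control. In each group 1 library stood above the other 2, and these were the 2 libraries at the ends of the first principal component. The log2 fold change was 0.02 (SE 0.31, 95% interval −0.62 to 0.66, edgeR adjusted p = 0.995). Leaving out miR-148a-3p replicate 3 gave −0.25 and leaving out control replicate 1 gave 0.45. The sign also turned on leaving out control replicate 2 (−0.13) or control replicate 3 (−0.18).

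AGO1 and AGO3 lie beside each other on the plus strand with 185 bases between their RefSeq spans, downstream of AGO4, which is no member of the set. AGO4 was at 28.3, 16.6 and 16.5 CPM with miR-148a-3p, against 27.9, 24.5 and 15.9 CPM with the control (log2 fold change −0.11, SE 0.41, edgeR adjusted p = 0.970). The sources used here do not say how the counting treated reads that match more than 1 of these related genes.

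The make-up of the Argonaute family was measured as each gene's share of the reads of AGO1 to AGO4, which does not depend on the scaling of libraries. AGO2 held 70.0%, 75.9% and 70.6% with miR-148a-3p and 57.2%, 74.8% and 75.6% with the control, so it held most of the family's reads in all 6 libraries. Its means were 72.2% ± 3.23 and 69.2% ± 10.4 (SD, n = 3 each; exact permutation p = 0.8). AGO1 held 12.1% ± 2.86 and 15.4% ± 3.58 (exact permutation p = 0.4, n = 3 each), AGO3 11.5% ± 4.45 and 10.8% ± 5.60 (exact permutation p = 0.7), and AGO4 4.16% ± 1.33 and 4.52% ± 1.32 (exact permutation p = 0.6). The summed family was at 491 ± 23.8 CPM with miR-148a-3p and 506 ± 63.7 CPM with the control (SD, n = 3 each). Control replicate 1 had the lowest AGO2 share and the highest AGO1 and AGO3 shares of the 6 libraries, and without it the difference in the AGO2 share, miR-148a-3p minus control, was −3.08 percentage points in place of 2.93. The AGO1 difference was −3.28 points with all libraries, −1.21 without control replicate 1 and −1.81 without miR-148a-3p replicate 3. The AGO3 difference was 0.711 points with all libraries, 3.94 without control replicate 1 and −1.85 without miR-148a-3p replicate 3. Leaving out each of the 6 libraries in turn gave −4.67 to −1.21 points for AGO1, −3.08 to 6.12 for AGO2, −1.85 to 3.94 for AGO3 and −1.13 to 0.355 for AGO4.

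**Figure D2:**
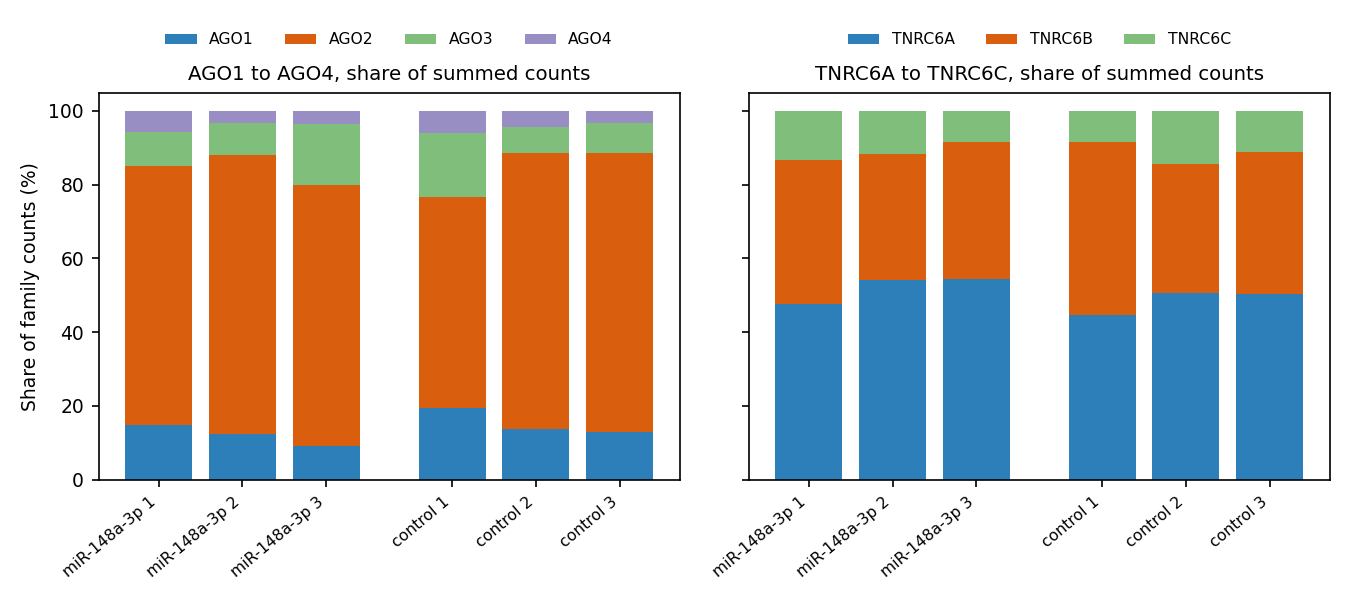
Share of the summed reads of the Argonaute family (left) and of the TNRC6 family (right) held by each gene in each library, in percent, with the miR-148a-3p libraries left of the control miRNA libraries. AGO2 holds 57.2% to 75.9% of Argonaute reads and TNRC6A holds 44.5% to 54.4% of TNRC6 reads.

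TNRC6 proteins are the scaffolds between Argonaute and the deadenylases. TNRC6A (chromosome 16, 24610205 to 24826218) was at 319, 363 and 316 CPM with miR-148a-3p, against 366, 350 and 382 CPM with the control. The groups overlapped, since miR-148a-3p replicate 2 lay above control replicate 2. Its fitted log2 fold change was −0.14 (SE 0.17, 95% interval −0.49 to 0.22, edgeR adjusted p = 0.913), and it was below 0 under all 14 alternatives, from −0.20 to −0.10. TNRC6A also varied least between replicates for its count, with a variance within groups of 1.24 times that of Poisson sampling, where the median of the 10 genes was 3.31 and the highest was AGO2 at 10.4.

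TNRC6B (chromosome 22, 40044834 to 40335808) was at 262, 231 and 216 CPM with miR-148a-3p, against 387, 244 and 293 CPM with the control. The groups overlapped in 1 pair, since miR-148a-3p replicate 1 lay above control replicate 2. The log2 fold change was −0.38 (SE 0.19, 95% interval −0.78 to 0.02, edgeR adjusted p = 0.726), and −0.18 (SE 0.19) without control replicate 1, the highest library. It was below 0 under all 15 alternatives, with adjusted p from 0.578 to 0.998.

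TNRC6C (chromosome 17, 77957557 to 78108835) was at 89.0, 78.1 and 49.4 CPM with miR-148a-3p, against 68.4, 99.2 and 84.2 CPM with the control. The groups overlapped, and the lowest library was miR-148a-3p replicate 3. Between groups the log2 fold change was −0.18 (SE 0.25, 95% interval −0.70 to 0.34, edgeR adjusted p = 0.921), and 0.0050 (SE 0.26) without miR-148a-3p replicate 3. The 3′ end of TNRC6C shares 1439 bases with TMC6, a membrane protein gene on the opposite strand with 111, 47 and 42 reads and 76, 55 and 54 reads. With the reads of TMC6 added, the log2 fold change of TNRC6C was −0.11 (SE 0.20).

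Within the TNRC6 family, TNRC6A held 52.0% ± 3.80 of the reads with miR-148a-3p and 48.5% ± 3.38 with the control (SD, n = 3 each; exact permutation p = 0.3). TNRC6B held 36.8% ± 2.38 and 40.3% ± 6.15 (exact permutation p = 0.5, n = 3 each), and TNRC6C 11.1% ± 2.43 and 11.2% ± 3.00 (exact permutation p = 1). Without control replicate 1 the TNRC6B difference, miR-148a-3p minus control, was −0.065 percentage points in place of −3.47, and the TNRC6A difference 1.62 in place of 3.57. With 1 library left out these ranged from −6.04 to −0.065 points for TNRC6B, from 1.62 to 5.77 for TNRC6A and from −1.56 to 1.43 for TNRC6C. The family sum was 670, 672 and 581 CPM with miR-148a-3p, against 822, 693 and 760 CPM with the control. The sum was thus lower in each of the 3 miR-148a-3p libraries than in any control library, with means of 641 ± 51.8 and 758 ± 64.3 CPM (SD, n = 3 each). This sum was chosen after the values of its members were seen and was not tested. Of single tested genes, 6.59% were lower with no overlap, and TNRC6A, TNRC6B and TNRC6C each overlapped. The groups also overlapped for the sum of AGO1 to AGO4 and for that of DROSHA and DGCR8.

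By mean CPM over all 6 libraries, with no correction for transcript length, the order was AGO2 (354 CPM), TNRC6A (349), TNRC6B (272), DICER1 (185), TNRC6C (78.0), AGO1 (68.7), DGCR8 (60.9), AGO3 (54.7), XPO5 (39.3) and DROSHA (19.8). Some neighbours kept their order in 6 of 6 libraries: TNRC6B above DICER1, DICER1 above TNRC6C, and XPO5 above DROSHA. TNRC6A exceeded TNRC6B, and TNRC6C exceeded AGO1, in 5 of 6 libraries. The other neighbours (AGO2 and TNRC6A, AGO1 and DGCR8, DGCR8 and AGO3, AGO3 and XPO5) kept it in 4 of 6 libraries. For AGO3 and XPO5 the exceptions were control replicates 2 and 3, and for AGO2 and TNRC6A control replicates 1 and 3. For AGO1 and DGCR8, and for DGCR8 and AGO3, the exceptions fell in both groups. Whether any order differs between the groups was not tested.

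**Figure D3:**
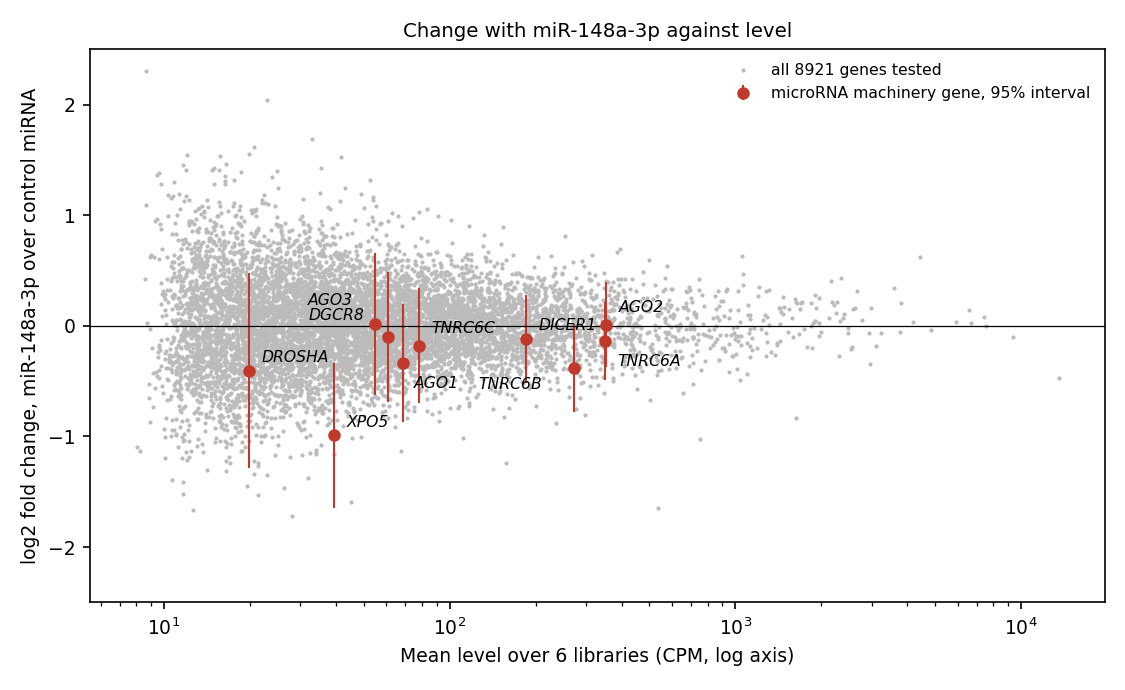
Log2 fold change, miR-148a-3p over control miRNA, against the mean level over the 6 libraries in CPM (log axis) for all 8921 tested genes (grey) and the 10 machinery genes (red, bars are unadjusted 95% intervals). XPO5 at −0.99 stands lowest of the 10, and the intervals of the other 9 include 0.

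The wider pathway was read from 7 lists by role, with 68 genes, of which 62 were tested. Of these, 0 passed the threshold in either direction with edgeR, DESeq2 or limma-voom. The fitted value was below 0 for 34 and above 0 for 28, and the median log2 fold change was −0.0027, beside −0.0039 over all genes. At an unadjusted p below 0.05 there were 3 genes, all lower, FXR1, IPO8 and DDX6, beside 3.4% of all genes that were lower. The groups did not overlap for 5 that were lower, beside 6.59% of all genes, and for 5 that were higher, beside 6.22%.

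Among 14 cofactors of the Microprocessor, the fitted value was below 0 for 8 and above 0 for 6 (median −0.04). DDX17, an RNA helicase bound to DROSHA, was at 199 ± 22.6 CPM with miR-148a-3p and 251 ± 45.2 CPM with the control, which gave −0.33 on the log2 scale (SE 0.19, edgeR adjusted p = 0.765). SRSF7, a splicing factor that aids the choice of the cleavage site, was at 237 ± 18.6 and 183 ± 37.5 CPM, which gave 0.38 on the log2 scale (SE 0.20, edgeR adjusted p = 0.726). The SDs are over 3 libraries in each group.

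For precursor export, RAN, the GTPase that gives exportins their direction, was at 479 ± 73.3 CPM with miR-148a-3p and 502 ± 205 CPM with the control (log2 fold change −0.06, SE 0.23, edgeR adjusted p = 0.968). NUP153, a nuclear pore protein, had −0.36 (SE 0.36, edgeR adjusted p = 0.886). Whether either differed from XPO5 was not tested. Among the partners of DICER1, PRKRA (PACT) had −0.45 (SE 0.33, edgeR adjusted p = 0.823) and the RNA-editing enzyme ADAR −0.16 (SE 0.20, edgeR adjusted p = 0.911).

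The list of Argonaute partners had 9 tested genes, with AGO4, itself an Argonaute and described above, counted among them. The fitted value was below 0 for 7, AGO4 included, and above 0 for 2 (median −0.27). FXR1, an RNA-binding protein of the fragile X family, was at 494, 502 and 571 CPM with miR-148a-3p, against 731, 845 and 806 CPM with the control. The groups did not overlap, and the log2 fold change was −0.61 (SE 0.17), which did not pass (edgeR adjusted p = 0.322). IPO8, an importin that binds Argonaute, was at 48.8, 54.4 and 39.5 CPM with miR-148a-3p, against 73.2, 70.0 and 68.3 CPM with the control. Its groups did not overlap either, and its change was −0.55 on the log2 scale (SE 0.26, edgeR adjusted p = 0.725).

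The 12 chaperones and co-chaperones of Argonaute loading had 5 lower and 7 higher fitted values (median 0.07). AHSA1, which stimulates the ATPase of HSP90, had 0.28 (SE 0.18, edgeR adjusted p = 0.777), and the immunophilin FKBP5 had 0.47 (SE 0.33, edgeR adjusted p = 0.807). The 13 tested genes of microRNA tailing and decay had 4 lower and 9 higher (median 0.07), with ELOC, a ubiquitin ligase subunit, at 0.22 (SE 0.26, edgeR adjusted p = 0.904) and ZSWIM8, the receptor of target-directed microRNA decay, at 0.28 (SE 0.37, edgeR adjusted p = 0.913). LIN28A, which blocks let-7 processing, was at 0 in all 6 libraries. LIN28B, on the same list, had reads but did not pass the filter on low counts.

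Of the 8 tested factors that TNRC6 proteins or deadenylation complexes call on, the fitted value was below 0 for 6 and above 0 for 2 (median −0.07). DDX6, the helicase named in the series' title, had the lowest at −0.75 (SE 0.21, edgeR adjusted p = 0.322), with 94.9, 133 and 90.5 CPM with miR-148a-3p, against 199, 166 and 168 CPM with the control. CNOT1, the scaffold of the CCR4-NOT deadenylase, was at 132 ± 19.6 CPM with miR-148a-3p and 98.6 ± 15.5 CPM with the control (SD, n = 3 each; log2 fold change 0.41, SE 0.22, edgeR adjusted p = 0.726).

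**Figure D4:**
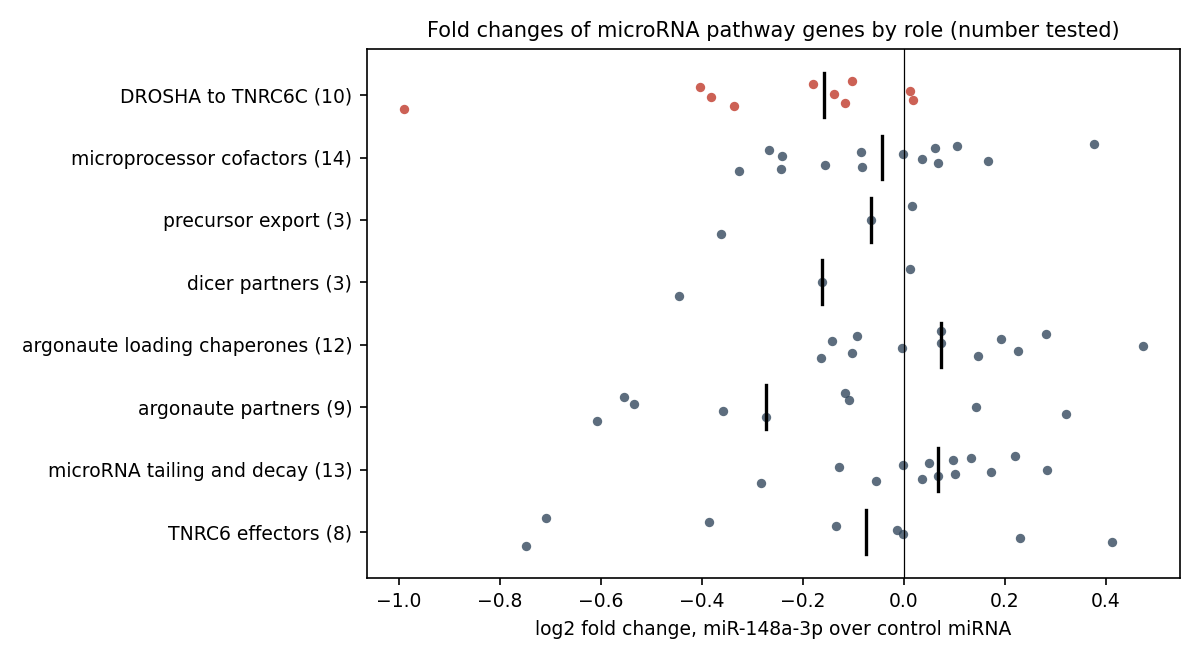
Log2 fold change, miR-148a-3p over control miRNA, of each tested gene of the microRNA pathway by role, with the number tested in brackets and a black bar at each median. The 10 machinery genes (red) have a median of −0.16 and the other lists (blue) have medians from −0.27 to 0.07.

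Wild-type HCT116 cells, in which DROSHA is intact, gave a small RNA library that held 3627859 microRNA counts. It has no replicate, and its Wilson 95% intervals cover counting error only. The microRNAs that lie inside the genes of the set are shown because the Microprocessor is known to cut hairpins in the DGCR8 transcript itself. In RefSeq, MIR3618 and MIR1306 lie within DGCR8 on the plus strand of chromosome 22 (mature positions from 20085797 to 20085818 and from 20086072 to 20086129), and MIR3173 lies within DICER1. Capitals mark the seed:
miR-1306-5p: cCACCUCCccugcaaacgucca
miR-1306-3p: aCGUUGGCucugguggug
miR-3618: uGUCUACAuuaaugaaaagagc
miR-3173-5p: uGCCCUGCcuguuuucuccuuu

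MicroRNAs from the DGCR8 gene were scarce. The miR-1306 arms had 27 counts (5p) and 29 counts (3p), and no isoform of miR-3618 carried a count, which gives the gene 0.00154% of all microRNA counts (interval 0.00119% to 0.00200%). From the DICER1 gene, miR-3173-5p had 14 counts and miR-3173-3p none. For comparison, miR-148a-3p had 253510 counts (6.99%, interval 6.96% to 7.01%). Its share was 8.05% with counts divided by the number of RefSeq loci and 7.24% with the annotated 5′ end only. Both lay outside that interval, which covers counting error only. The 5′ end, which sets the seed, was at the annotated base in 96.3% of miR-1306-5p counts and 58.6% of miR-1306-3p counts, against 99.9% of miR-148a-3p counts.

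Some microRNAs are known to be made without DROSHA. Mirtrons are excised by splicing, so their hairpins begin and end as introns do, and the capitals below mark those ends (GU and AG). MIR877 lies on the plus strand at chr6:30584332-30584417 and MIR1226 on the plus strand at chr3:47849555-47849629 of GRCh38.p14:
MIR877: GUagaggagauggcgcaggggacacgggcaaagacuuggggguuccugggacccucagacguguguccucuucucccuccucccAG
MIR1226: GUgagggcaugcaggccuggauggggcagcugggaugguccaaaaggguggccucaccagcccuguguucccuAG
Of 1562 hairpins in the table, 36 (2.30%) begin and end with these letters. In wild-type cells miR-877-5p had 344 counts and miR-877-3p 201, so both arms were counted. MIR1226 gave 44 counts of miR-1226-3p and 1 count of miR-1226-5p.

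The other listed microRNAs that bypass DROSHA, whose precursors carry the cap of a transcription start, were more abundant. The count of miR-320a-3p was 6373, and reads of it may be shared with miR-320b, which had 6624. The count of miR-484 was 1113, and its sequence is given with the seed in capitals:
miR-484: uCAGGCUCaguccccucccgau
Together the 6 listed microRNA arms that bypass DROSHA made up 0.223% of all counts (interval 0.218% to 0.228%). Of miR-451a, which is matured by AGO2 in place of DICER1 and is known from red blood cells, 1 count was found. The let-7 family and miR-103 with miR-107, known repressors of DICER1, made up 7.89% and 1.16% of counts. Reads of these names may be counted more than once, since miR-103b was listed with the same 28796 counts as miR-103a-3p. With counts divided by the number of RefSeq loci, the share of miR-103a-3p was 0.457% in place of 0.794% and that of let-7a-5p 0.702% in place of 1.83%. These shares describe wild-type cells, and no small RNA library of the knockout cells was analysed here.

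**Figure D5:**
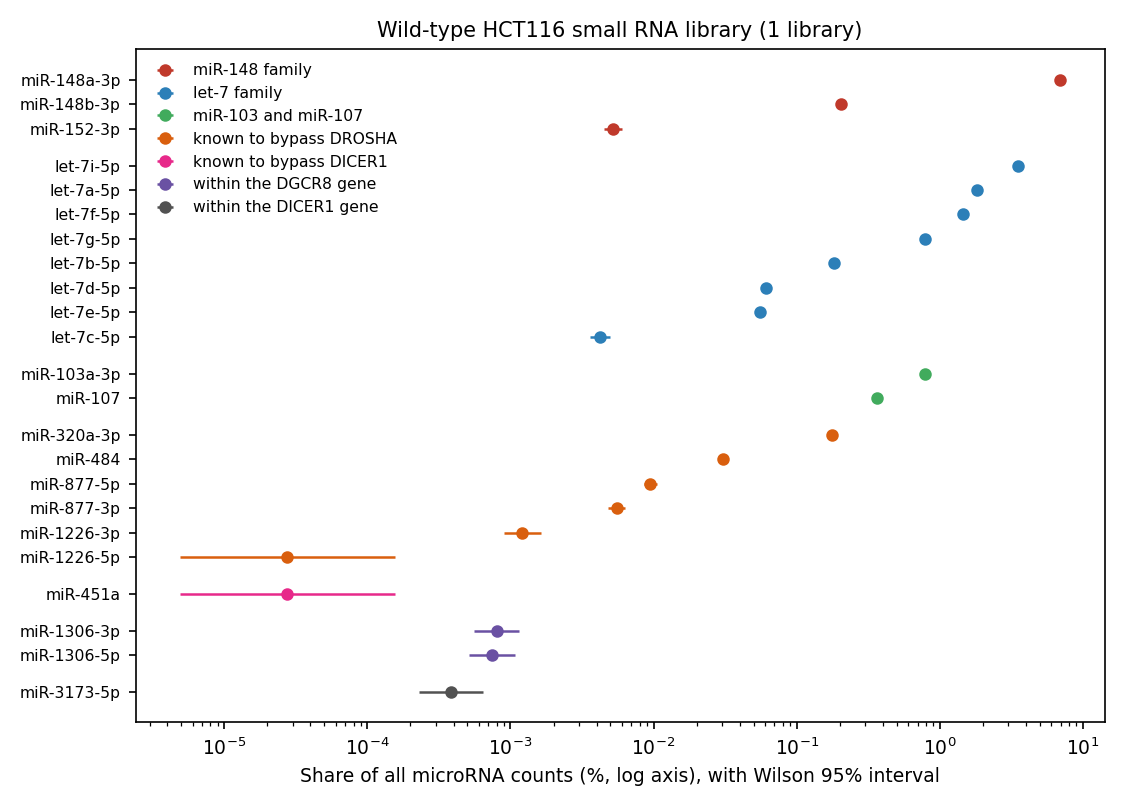
Share of all microRNA counts in the wild-type small RNA library, in percent on a log axis with Wilson 95% intervals, for microRNAs grouped by their relation to the machinery; names with no count are not drawn. The microRNAs within DGCR8 and DICER1 lie at 0.000799% or less each, miR-320a-3p at 0.176% and miR-148a-3p at 6.99%.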

How the data were processed

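Per the labels, 3 miR-148a-3p and 3 control miRNA oligo-dT mRNA libraries and 1 TruSeq small RNA library were made. Raw counts were deposited per gene symbol (a missing gene was read as 0) and per microRNA isoform, beside the offsets of its ends, per the file headers. The submitters' processing notes name cutadapt, STAR, Bowtie2 and GRCh38; for versions, counting tool and strand: not given in the sources used here. Isoforms with a blank count were left out.

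The fit used edgeR 4.0.16 and R 4.3.3 (TMM, filterByExpr, quasi-likelihood test, group as the only term, 8921 genes). The SE is the log2 fold change over the root of F, and 95% intervals use its t quantile. Alternatives were DESeq2 1.42.0, limma-voom 3.58.1, other size factors and filters, thinning, the replicate block, left-out libraries and added reads of overlapping genes. Wilson intervals came from scipy 1.17.1. The scripts were checked on simulated data. The genes and lists were chosen with earlier results of these data known. Named were all 10 genes, AGO4, DDX6 and the 2 genes of smallest p per list. All 10 symbols matched RefSeq (GRCh38.p14). No label states separate cultures for the replicates, so the p-values cover the spread between libraries, possibly technical, which was 2.52 to 5.30 times Poisson variance. Reads were not collapsed to molecules.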

Additional observations from a re-analysis of the deposited data

How the results depend on the processing

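Of 145 values of the 10 genes under 15 alternatives, 134 kept their direction and 0 passed the threshold. The 11 that changed sign lay between −0.25 and 0.23. Thinning to the smallest library gave DROSHA 0.082, DICER1 0.17 and AGO2 −0.044. Leaving out a library gave DGCR8 0.23, DICER1 9.12e-04, AGO2 −0.16 and −0.05, AGO3 −0.25, −0.18 and −0.13, and TNRC6C 0.0050. Some lay further from 0 than the main value, such as DGCR8 (0.23 against −0.10) and AGO3 (−0.25 against 0.02). With 1 library left out, XPO5 ranged from −1.17 to −0.74, DGCR8 from −0.34 to 0.23, DICER1 from −0.20 to 9.12e-04, AGO2 from −0.16 to 0.19, AGO3 from −0.25 to 0.45 and TNRC6C from −0.37 to 0.0050. Genes called lower, 1 in the main analysis, were 11 without a filter on low counts, 2 with DESeq2, 3 with limma-voom, 3 with the replicate block and 2 after thinning, and 1 to 22 with 1 library left out; 22 came without control replicate 1. Genes called higher, 0 in the main analysis and with DESeq2 and limma-voom, were 7 without the filter and 0 to 4 with 1 library left out, 4 without control replicate 1. The cause was not tested. Whether the replicate numbers pair the libraries is not settled. Same-numbered libraries correlated in their deviations at 0.13, 0.09 and −0.0018, and differently numbered ones at −0.13 to 0.03. Replicates 1 and 2 correlated best with their own number, and replicate 3 did not. The share of microRNAs that bypass DROSHA was 0.257% with counts divided by RefSeq loci and 0.216% with the annotated 5′ end only. The first value moved only because the total fell, since the counts of these arms stayed undivided. It therefore does not check reads shared between miR-320a-3p and miR-320b. Depth limits DROSHA most, at 13 to 31 reads a library.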
